A study of Mus musculus with 9 samples.

Results

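The comparison of ears given MC903 and paeonol with ears given MC903 alone used 6 of the 9 libraries of the series, 3 in each group. Its members were all genes of the table that passed edgeR's expression filter, 21925 of 55401 features. All 9 libraries were made from messenger RNA of whole ear tissue of mice whose strain is labelled C57. The MC903 group received MC903, which is calcipotriol, a synthetic analogue of vitamin D. The paeonol group received MC903 and paeonol at 200 mg/kg. The 3 control libraries, from ears given absolute ethyl alcohol, are shown beside them. No group received paeonol without MC903. The labels name no vehicle for paeonol, so an effect of paeonol and one of its vehicle cannot be told apart. The labels used here give no age, sex, route or duration and do not tie libraries to separate animals. The p-values therefore speak only of the spread among these libraries, part or all of which may be technical.

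MC903 on mouse skin makes keratinocytes release TSLP, a cytokine that starts type 2 inflammation, and the skin thickens, itches and fills with leukocytes. Keratinocytes divide in the basal layer, then move up and make suprabasal keratins and the proteins and lipids of the cornified barrier. Under stress they make a different set of keratins. Paeonol is a phenolic ketone of peony root bark. The series title names a path from TRPV3, a warmth-gated calcium channel of keratinocytes, through the transcription factor NF-kB to the chemokine CCL3, which draws monocytes through receptors such as CCR1. RNA of whole ear comes from all its cells, so fewer cells of a type and less RNA per cell cannot be told apart in any result below.

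Markers of keratinocytes, cartilage, sebaceous gland and skeletal muscle, which an ear holds, were expressed in all 9 libraries. Library totals were 54264605 to 57745225 estimated counts. On the first principal component of the 6 libraries, which held 46.3% of the variance, the MC903 libraries lay from -69.1 to -52.2 and the paeonol libraries from 59.3 to 62.2. Paeonol library 3 stood apart from the other paeonol libraries on the second component (14.7% of the variance), at 67.4 against -34.2 and -31.9. A gene was called at an edgeR quasi-likelihood adjusted p under 0.05. Of the genes tested, 6502 were called, which is 29.7%. With paeonol 3357 were higher (15.3%) and 3145 lower (14.3%). Of the 16258 protein-coding genes tested, 36.3% were called, 3090 higher and 2815 lower. The gene lists below hold mostly protein-coding genes, so their counts are to be read beside this larger share too. A count near these shares says nothing particular about its list. The 3 libraries of one group lay wholly above the 3 of the other for 43.9% of all genes. Among the called genes, the estimated change was at least 2-fold for 1002 higher and 856 lower. It was at least 4-fold for 296 higher and 258 lower. These counts go by the estimate and are not tests against a change of that size. The median log2 change of all genes was 0.0024. Values below are CPM after TMM scaling, in the order of libraries 1, 2 and 3, and changes are log2 with their standard error (SE, n = 3 libraries a group). The kit keeps strand, but no source used here says that the counting did. Genes with an antisense neighbour, such as Slurp1 (Them6), Cyp24a1 (Pfdn4) and Il1b (Il1bos), can therefore hold reads of it.

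**Figure D1:**
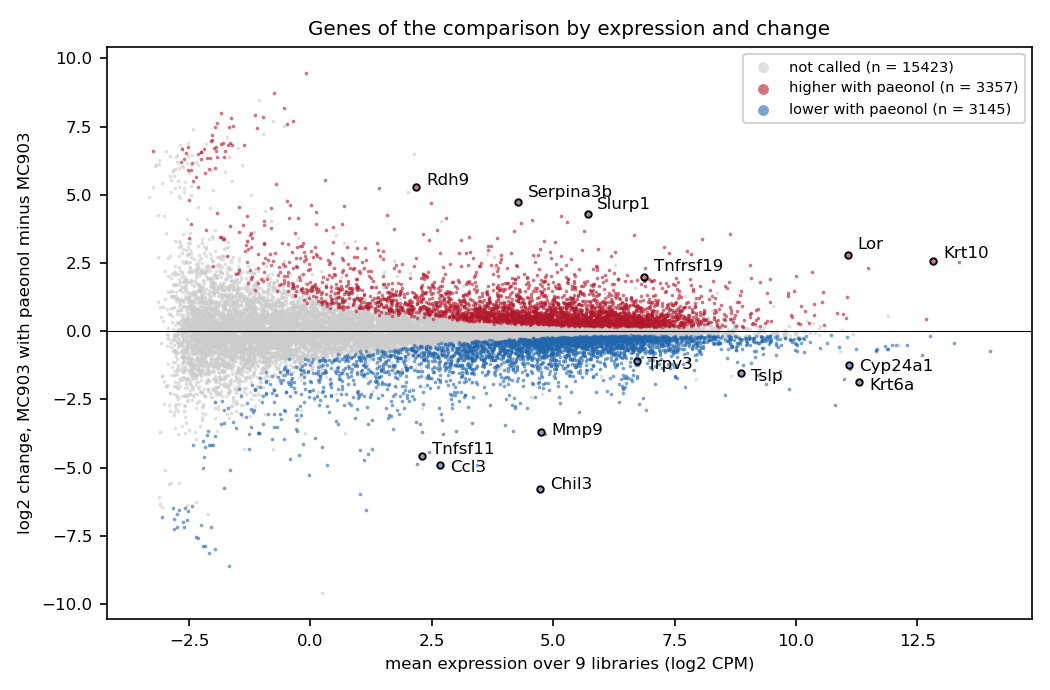
Each point is 1 of the 21925 genes tested, by its mean expression over 9 libraries (log2 CPM, horizontal) and its log2 change in MC903 with paeonol relative to MC903 (vertical). Red points were called higher, blue points lower and grey points not called; Chil3 and Ccl3 lie far below 0, Serpina3b and Slurp1 far above, and Krt10, at high expression, lies at 2.57.

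The channel and the chemokine of the title were both lower with paeonol, while the NF-kB subunit genes Nfkb1 and Rela were not called. Trpv3 was at 183, 163 and 191 CPM in MC903 and 73.8, 78.2 and 103 CPM with paeonol. The paeonol libraries lay below every MC903 library and above the controls, which were at 55.0, 46.9 and 55.6 CPM. The log2 change was -1.08 ± 0.12 (adjusted p = 0.000124), and relative to control the paeonol group was higher by 0.69 ± 0.12 (adjusted p = 0.00189). Against control, 30.9% of all genes were called. Ccl3 was at 11.3, 19.5 and 17.8 CPM in MC903 and 0.707, 0.332 and 0.575 CPM with paeonol, against 2.10, 3.26 and 1.44 CPM in control. The 3 paeonol libraries were the lowest of all 9, and the differences were -4.90 ± 0.39 from MC903 (adjusted p = 1.45e-05) and -2.07 ± 0.37 from control (adjusted p = 0.00187). Ccl4, the neighbouring chemokine gene, showed the same order of groups, 7.01, 15.1 and 13.4 CPM in MC903 and 0.336, 0.332 and 0.556 CPM with paeonol. Its control libraries were at 0.912, 2.38 and 0.777 CPM.

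Ccr1, a CCL3 receptor, went from 22.5, 26.3 and 27.1 CPM to 7.07, 3.87 and 4.97 CPM (-2.25 ± 0.29, adjusted p = 0.000314). Nfkbia encodes the inhibitor that holds NF-kB in the cytoplasm and is also a target of NF-kB. It was at 131, 146 and 159 CPM in MC903 and 81.2, 76.3 and 111 CPM with paeonol (-0.70 ± 0.13, adjusted p = 0.00322). Paeonol library 3 was the highest of its group for both Trpv3 and Nfkbia, and the groups still did not overlap. The subunit genes Nfkb1 (-0.05 ± 0.06) and Rela (0.04 ± 0.06) were not called, and Rel, the subunit c-Rel of lymphoid and myeloid cells, rose (0.94 ± 0.09, adjusted p = 3.27e-05). Among NF-kB members and targets there were 7 members higher and 9 lower of 32 tested, beside 15.3% and 14.3% of all genes. Their median was -0.23. Ptgs2, which encodes cyclooxygenase-2, fell from 88.5, 80.6 and 93.7 CPM to 10.8, 10.7 and 20.4 CPM (-2.65 ± 0.27). Vcam1, an adhesion molecule of inflamed vessels, changed by -1.79 ± 0.22. The count of higher members was 1 without MC903 library 1 or paeonol library 3, 2 without MC903 library 3, 3 without paeonol library 1 and 4 without paeonol library 2. That of lower members was 5 without paeonol library 2 and 14 by DESeq2.

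Promoters are shown for genes of this path and for proteases and barrier genes, because their textbook regulators NF-kB and AP-1 bind short motifs that can be read in the letters. Sequences are those of RefSeq for GRCm38.p6, 5′ to 3′ on the gene's strand, and end no later than the base before the transcription start. The first is the Ccl3 promoter, all 250 bases (chr11:83649379-83649628, minus strand). It holds no match to the NF-kB motif searched, which is GGGA, any pair of bases and TTCC, on both strands. That says only that these letters are not in this window.
Ccl3: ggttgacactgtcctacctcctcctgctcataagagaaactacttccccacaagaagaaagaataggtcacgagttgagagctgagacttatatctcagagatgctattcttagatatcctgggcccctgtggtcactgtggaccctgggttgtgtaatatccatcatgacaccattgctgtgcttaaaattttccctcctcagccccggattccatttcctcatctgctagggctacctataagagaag

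A match to the NF-kB motif stands in 1.36% of the 27025 genes of the promoter table. Of 11 monocyte and neutrophil attracting chemokines with a promoter there, 3 held it (Cxcl1, Cxcl2 and Cxcl3), and of 25 NF-kB members and targets 3 did, among them Nfkbia. Capitals mark the match, with 25 bases on each side where the window allows; in the chemokines it is 2 overlapping matches.
Cxcl2 (chr5:90903777-90903837, plus strand): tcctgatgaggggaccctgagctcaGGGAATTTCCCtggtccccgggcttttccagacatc
Cxcl3 (chr5:90786003-90786063, plus strand): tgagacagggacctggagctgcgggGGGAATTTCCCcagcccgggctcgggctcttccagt
Cxcl1 (chr5:90891149-90891209, plus strand): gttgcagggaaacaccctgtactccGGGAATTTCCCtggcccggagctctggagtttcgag
Nfkbia (chr12:55492648-55492701, minus strand): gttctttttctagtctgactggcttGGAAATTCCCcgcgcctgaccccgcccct
All 3 chemokines hold the same letters, and they did not move by the same amount. Cxcl2 fell from 31.3, 50.4 and 49.8 CPM to 4.12, 2.73 and 3.70 CPM (-3.64 ± 0.34) and Cxcl3 fell too (-3.32 ± 0.50). Cxcl1 was at 8.44, 15.5 and 11.1 CPM and 9.13, 8.87 and 9.72 CPM and was not called (-0.34 ± 0.44).

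The AP-1 motif TGANTCA, which reads the same on both strands, stands in 7.82% of all genes of the promoter table. It was found in 5 of 12 matrix proteases and inhibitors, in 9 of 22 suprabasal genes and in 7 of 17 stress keratins and alarmins that have a promoter there. Of the 20 TRP channel promoters, 1 held it, that of Trpv3. The 8 windows below carry it in capitals, 4 from genes that fell with paeonol and 4 from genes that rose. The match lies 81 bases before the RefSeq start in Trpv3, 46 in Mmp3, 48 in Lor and 116 in Ivl, counted to its first base. In the gene annotation used for the other values, Trpv3 starts earlier, at chr11:73267388. The Trpv3 match, at chr11:73267439-73267445, is inside the gene by that annotation and upstream only of the RefSeq start.
Trpv3 (chr11:73267414-73267470, plus strand): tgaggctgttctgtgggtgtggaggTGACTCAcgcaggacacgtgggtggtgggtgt
Mmp3 (chr9:7445751-7445807, plus strand): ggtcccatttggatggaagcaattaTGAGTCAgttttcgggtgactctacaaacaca
Mmp10 (chr9:7502254-7502310, plus strand): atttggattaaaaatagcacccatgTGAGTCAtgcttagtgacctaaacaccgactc
Mmp13 (chr9:7272454-7272510, plus strand): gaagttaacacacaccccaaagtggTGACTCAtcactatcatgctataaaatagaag
Flg (chr3:93273418-93273474, plus strand): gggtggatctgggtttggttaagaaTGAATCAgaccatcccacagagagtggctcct
Flg2 (chr3:93197179-93197235, plus strand): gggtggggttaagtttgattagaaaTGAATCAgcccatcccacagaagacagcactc
Lor (chr3:92083159-92083215, minus strand): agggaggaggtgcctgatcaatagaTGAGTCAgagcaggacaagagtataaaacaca
Ivl (chr3:92573820-92573876, minus strand): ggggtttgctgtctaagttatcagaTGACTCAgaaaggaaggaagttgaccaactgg
These 8 genes were chosen from both directions, so finding the motif in both is not a result. A match is a description of the sequence only.

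Chemokines that draw monocytes and neutrophils were lower with paeonol or did not pass the test. The list had 0 members higher and 9 lower of 15 tested and a median log2 change of -1.82. The summed level was 782.9 to 953.6 CPM in the MC903 libraries, 179.7 to 263 CPM with paeonol and 224.8 to 302.3 CPM in control. Ccl6, a macrophage chemokine with one of the smallest p-values of the comparison, was at 224, 239 and 265 CPM in MC903 and 45.8, 34.1 and 35.9 CPM with paeonol (-2.65 ± 0.11, adjusted p = 6.94e-07). Its paeonol libraries overlapped the controls, at 41.3 to 46.8 CPM. Its relative Ccl9 changed by -2.25 ± 0.17. Ccl7, a ligand of CCR2, was not called (-0.98 ± 0.50), but was in the fit of the 6 libraries alone (adjusted p = 0.0223) and without control library 2 (adjusted p = 0.014). The remaining chemokines had 2 members higher and 4 lower of 20 tested, near the 15.3% and 14.3% of all genes. Cxcl11, which the annotation marks as a polymorphic pseudogene, fell (-2.29 ± 0.51) at low levels. It was at 0.705, 1.70 and 1.92 CPM in MC903 and 0.389, 0.203 and 0.288 CPM with paeonol. Ccl11, the eosinophil attractant eotaxin, fell too (-1.09 ± 0.21). The skin chemokines Ccl27a and Ccl28, made by keratinocytes and other epithelia, rose by 1.09 ± 0.21 and 2.21 ± 0.30. Ccl27a overlaps Il11ra1 on the other strand. Among chemokine receptors, 5 were higher and 5 lower of 22 members tested. Ccrl2 (-2.36 ± 0.23) and Cxcr4 (-2.04 ± 0.23) fell, and Ackr4, a scavenger of homeostatic chemokines, rose (1.61 ± 0.13), as did Ccr4 (1.74 ± 0.18), a receptor of skin-homing T cells. DESeq2 called 7 lower members among the remaining chemokines.

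Macrophage genes fell almost throughout. Of the macrophage list, 0 were higher and 24 lower of 28 members tested, with a median of -1.61. Its summed level was 2699 to 2927 CPM in MC903, 943.5 to 1303 CPM with paeonol and 1374 to 1545 CPM in control, so the paeonol libraries lay below the control range. Chil3, a chitinase-like protein of macrophages in type 2 inflammation, was at 53.7, 65.5 and 111 CPM in MC903 and 2.42, 1.09 and 0.671 CPM with paeonol, against 1.49, 2.05 and 1.15 CPM in control. Paeonol and control libraries overlapped, and the difference between them was not called (-0.16 ± 0.54, adjusted p = 0.868). Fcgr3, an Fc receptor, fell from 89.4, 99.96 and 96.6 CPM to 37.2, 28.0 and 26.7 CPM (-1.64 ± 0.13). Cd14, a co-receptor for endotoxin (-2.48 ± 0.17), and C1qa, a subunit of complement C1q made by macrophages (-2.02 ± 0.14), also fell. Ccr2, a receptor of inflammatory monocytes (0.43 ± 0.16), was not called. Ccr2 was called higher without MC903 library 3, without paeonol library 2 and by DESeq2 (adjusted p = 0.0205, 0.0392 and 0.024). The transcripts thus did not all move together. The complement list, which shares the 3 C1q genes with the macrophage list, had 1 member higher and 15 lower of 19 tested. C3, the central component, went from 702, 753 and 731 CPM to 128, 169 and 131 CPM (-2.35 ± 0.20). The receptor C5ar1 changed by -2.28 ± 0.17.

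Neutrophil genes were lower in most called cases. The list had 1 member higher and 9 lower of 16 tested, while Ly6g, Elane and Ngp did not reach the expression filter. Mmp9, a gelatinase stored by neutrophils, was at 92.4, 71.6 and 32.7 CPM in MC903 and 6.31, 5.33 and 3.36 CPM with paeonol (-3.71 ± 0.43). MC903 library 3 was the lowest of its group and still above every paeonol library. Trem1, an amplifying receptor of neutrophils (-4.35 ± 0.54), Stfa2l1, a stefin of mouse neutrophils (-4.51 ± 0.80), and the G-CSF receptor Csf3r (-1.93 ± 0.19) fell. Csf3, which encodes the cytokine G-CSF, had a mean of at most 12 estimated counts with paeonol, and its ratio to MC903 was 0.0322 (95% counting interval 0.00865 to 0.0847). S100a8 (-0.28 ± 0.49) and S100a9 (0.32 ± 0.45), calprotectin genes that stressed keratinocytes also express, were not called. Cxcr2, the receptor of the CXCL chemokines, was the higher member (0.82 ± 0.26). That call ended without control library 1, without any 1 of the MC903 or paeonol libraries, and without the filter (adjusted p from 0.0535 to 0.131).

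Mast cell and basophil genes had 0 members higher and 10 lower of 15 tested, with summed levels of 221.5 to 300.5 CPM in MC903, 116.8 to 170.8 CPM with paeonol and 150.2 to 171 CPM in control. Hdc, the enzyme that makes histamine, was at 36.7, 43.5 and 50.2 CPM in MC903 and 6.73, 5.98 and 5.89 CPM with paeonol. The controls, at 6.11, 5.71 and 4.90 CPM, were not called different from the paeonol group (0.15 ± 0.13, adjusted p = 0.443). The basophil protease Mcpt8 fell to a ratio of 0.0793 (95% counting interval 0.0309 to 0.17). Its estimated counts were 106, 161 and 80 in MC903, 14, 8 and 6 with paeonol and 6, 0 and 4 in control. Mcpt8 passed the expression filter only through the MC903 libraries, so the filter itself favoured its place among the 10 lower members. The tryptases Tpsab1 (-1.85 ± 0.33) and Tpsb2 (-1.36 ± 0.19) fell. The connective tissue mast cell proteases Cma1 (-0.59 ± 0.20) and Mcpt4 (-0.43 ± 0.20) were not called in the fit of 9 libraries. Cma1 was called lower by DESeq2, with counts divided by 4, with the filter at a mean CPM of 1, without MC903 library 1 and without paeonol library 1 (adjusted p = 0.0101, 0.0455, 0.0452, 0.0354 and 0.0137). Mcpt4 was called without MC903 library 1 (adjusted p = 0.0262).

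Lymphocyte genes went both ways. The T cell list had 4 members higher and 8 lower of 25 tested. Its count of higher members lay near the 15.3% of all genes. Cd8a, the co-receptor of cytotoxic T cells, was at 1.27, 3.48 and 6.81 CPM in MC903 and 0.530, 0.867 and 0.364 CPM with paeonol (-2.71 ± 0.66). That call ended without paeonol library 1 or 3 (adjusted p = 0.0567 and 0.0521). The co-stimulatory receptor Icos changed by -1.505 ± 0.25. In the other direction, Trdc, the constant segment of the γδ T cell receptor, rose from 2.43, 2.66 and 2.70 CPM to 8.55, 10.9 and 8.05 CPM (1.82 ± 0.15), with 19.6, 20.6 and 18.5 CPM in control. Gata3 (1.502 ± 0.09), a transcription factor that keratinocytes and follicles also express, rose. Of the NK and innate lymphoid list, 1 was higher and 4 lower of 11 members tested. Gzmb, a granzyme of cytotoxic cells, was at 11.6, 15.7 and 21.2 CPM in MC903, 1.59, 1.13 and 0.844 CPM with paeonol and 0.880, 4.56 and 1.76 CPM in control (-3.76 ± 0.60). No B or plasma cell marker but Blnk (1.296 ± 0.16) was called of 12 tested, and of the 10 eosinophil genes 4 were tested and Ear2 was called higher (1.02 ± 0.29). Ear2 was no longer called with MC903 library 1, MC903 library 2 or paeonol library 3 left out (adjusted p = 0.0644, 0.074 and 0.0672).

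Skint7 and Skint9, members of a family whose founder guides the γδ T cells of mouse epidermis, stood among the 10 largest increases under the naming rule below. Skint7 was at 2.45, 1.66 and 2.36 CPM in MC903 and 37.6, 19.96 and 24.6 CPM with paeonol, and Skint9 at 10.1, 5.75 and 3.94 CPM and 84.3, 86.7 and 78.4 CPM. The controls, at 27.4, 25.1 and 23.1 CPM and 73.0, 54.5 and 48.9 CPM, were not called different from the paeonol group (adjusted p = 0.726 and 0.261). Members of this family are alike in sequence, so reads between copies may be shared. Dendritic and Langerhans cell genes had 4 members higher and 5 lower of 19 tested. Clec10a (-1.73 ± 0.10) and Fscn1 (-1.67 ± 0.20), genes of dermal and mature dendritic cells, fell. Epcam, an adhesion molecule of Langerhans cells and follicle epithelium, rose (1.66 ± 0.10), and Cd207, the Langerhans cell lectin langerin, was not called (0.24 ± 0.17). The count of lower members was 3 without MC903 library 2 or paeonol library 1.

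Antigen presentation genes are given by class. Class I had 0 members higher and 8 lower of 15 tested and a median of -0.65. B2m, the light chain, went from 474, 521 and 618 CPM to 375, 309 and 341 CPM (-0.65 ± 0.13), and H2-D1 changed by -0.60 ± 0.11. The class I heavy chain genes are near-identical copies, so their single values are uncertain. The class I count of lower members was 2 without paeonol library 2 or paeonol library 3, 3 without the filter and without MC903 library 3, 4 with a block for the replicate number and without MC903 library 1 and 5 on library totals alone and without control library 3 or paeonol library 1. Class II had 2 members higher and 2 lower of 12 tested, with the lysosomal protease Ctss lower (-1.32 ± 0.16) and H2-Aa (0.12 ± 0.10) and H2-Eb1 (0.20 ± 0.12) not called. Interferon-stimulated genes had 0 members higher and 2 lower of 27 tested, a share below the 29.7% of all genes. Stat2 (-0.13 ± 0.31) and Ifitm3 (-0.35 ± 0.20) were not called.

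Tslp and Il33, epithelial cytokines that drive type 2 inflammation, were lower, and the lymphocyte cytokines were barely detected. Tslp was at 739.6, 907 and 1472 CPM in MC903 and 254, 318 and 516 CPM with paeonol. The groups did not overlap, and the paeonol group lay above the controls, which were at 6.98, 6.35 and 5.78 CPM (5.83 ± 0.42, adjusted p = 0.000137). The change from MC903 was -1.52 ± 0.34 (adjusted p = 0.0149), and without paeonol library 2 it was not called (adjusted p = 0.0537). Il33, an alarmin of keratinocytes, was at 170.5, 179 and 190.3 CPM and 94.3, 113 and 125 CPM (-0.70 ± 0.10, adjusted p = 0.000256). Of the type 2 list, 2 were higher and 10 lower of 19 members tested. The receptor Il4ra went from 165, 186 and 219 CPM to 65.5, 64.2 and 56.8 CPM (-1.61 ± 0.29), the shared chain Il2rg changed by -1.09 ± 0.16, the oncostatin M receptor Osmr by -0.73 ± 0.10, and Stat6, which carries the signal of IL-4 and IL-13, by -0.46 ± 0.06. Il4 was at 0.705, 0.758 and 1.13 CPM and 0.477, 0.609 and 0.383 CPM and Il13 at 0.0783, 0.185 and 0 CPM and 0.194, 0.203 and 0.153 CPM. Neither was called.

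Of the other cytokine families, the IL-1 family went both ways. Il1b, a cytokine of myeloid cells, fell from 33.6, 45.3 and 42.6 CPM to 7.51, 6.86 and 5.41 CPM (-2.62 ± 0.24), and the sensor Nlrp3 changed by -2.18 ± 0.20. The epidermal members Il1f6 (2.55 ± 0.27) and Il1f10 (3.69 ± 0.36), which encode IL-36α and IL-38, rose. Il1f10 was at 0.587, 0.203 and 0.290 CPM in MC903, 6.04, 3.82 and 4.08 CPM with paeonol and 16.1, 12.3 and 10.5 CPM in control. The IL-1 family list had 8 members higher and 5 lower of 19 tested. Il6 (-1.53 ± 0.75) and Tnf (-0.22 ± 0.30) were not called, and Il6 was called in the fit of 6 libraries and without control library 2 (adjusted p = 0.00741 and 0.0103). Il10 was called lower (-2.21 ± 0.55), a call that ended without paeonol library 1 (adjusted p = 0.0507). Il20rb, a chain of the receptors for IL-20 family cytokines, rose (1.32 ± 0.12), as did the IL-6 receptor Il6ra (0.83 ± 0.09). Tnfsf11, the cytokine RANKL and a vitamin D target, was at 13.7, 15.3 and 11.9 CPM in MC903, 0.724, 0.756 and 0.211 CPM with paeonol and 0.416, 0.902 and 0.253 CPM in control. Paeonol and control libraries overlapped. Tnfrsf11b, its soluble decoy receptor, rose (1.27 ± 0.18). The TNF superfamily had 3 members higher and 3 lower of 24 tested, and its count of lower members was 5 with a block for the replicate number and without control library 2 or MC903 library 1 and 6 by DESeq2. Type 17 and type 1 cytokines and receptors had 3 members higher and 4 lower of 17 tested, beside 15.3% and 14.3% of all genes. There the count of higher members was 1 without MC903 library 3, and of lower members 2 without MC903 library 2, paeonol library 2 or paeonol library 3.

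**Figure D2:**
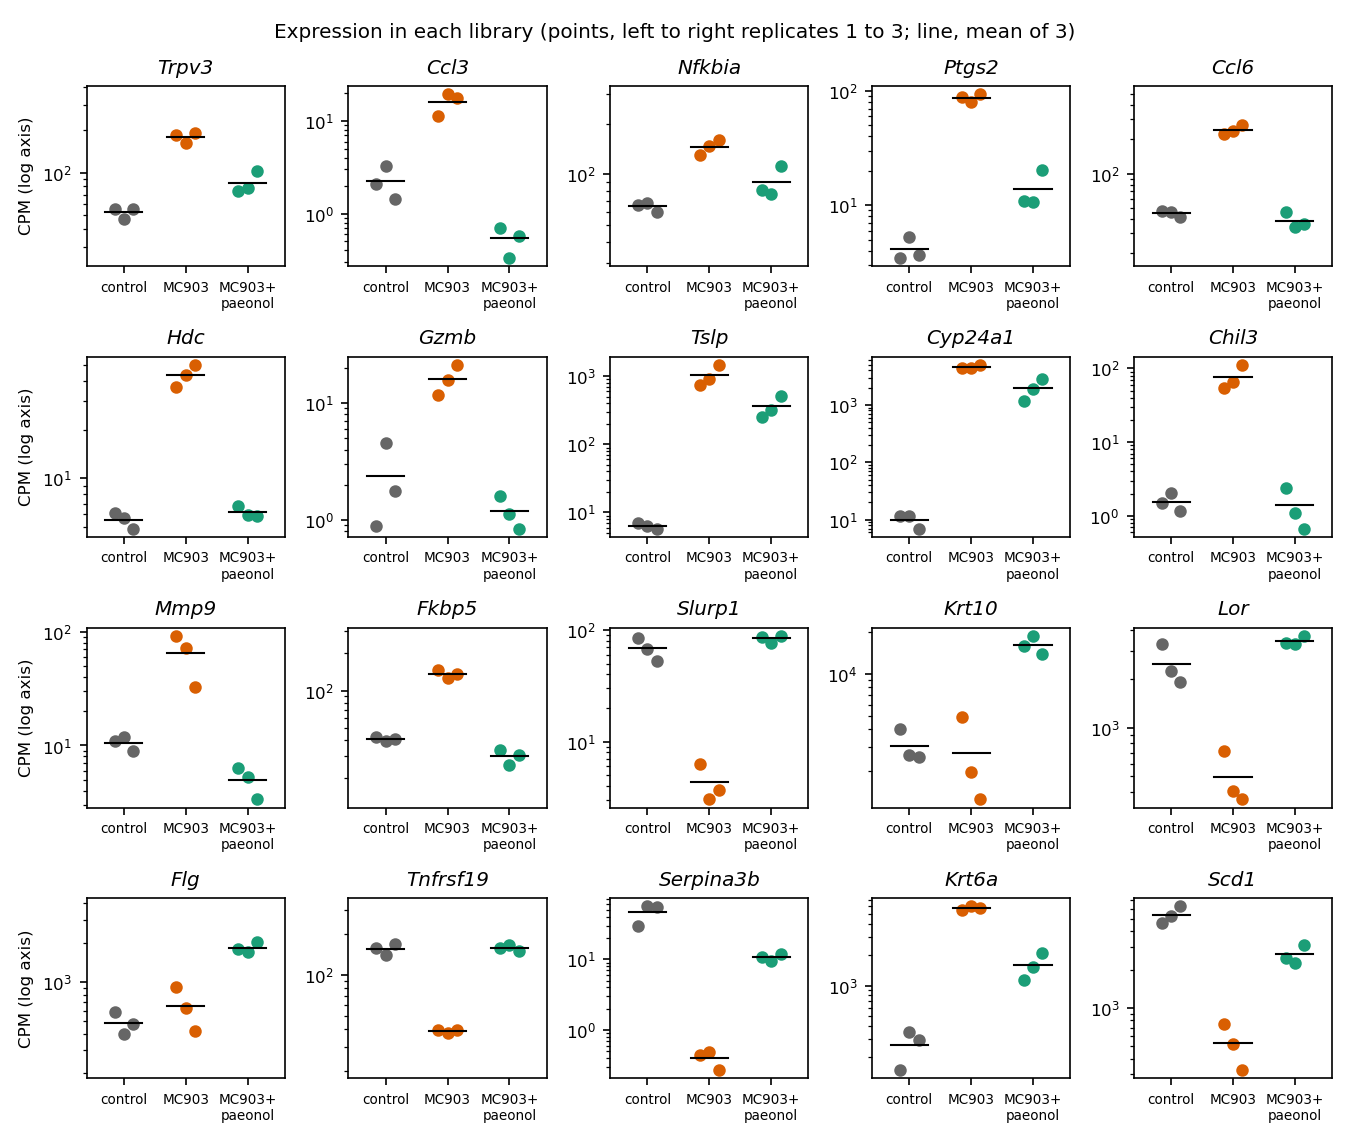
CPM of 20 genes in each of the 9 libraries (log axis), with a line at the mean of the 3 libraries of a group. For Ccl6, Hdc, Chil3, Slurp1 and Tnfrsf19 the paeonol libraries lie beside the controls and away from MC903, while Trpv3, Tslp, Cyp24a1 and Krt6a lie between the groups and Krt10 and Flg lie above both.

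Genes of the upper epidermis were higher with paeonol, in part above the controls. Of the suprabasal list, 21 were higher and 1 lower of 30 members tested, with a median of 1.23. Its summed level was 14640 to 28920 CPM in the MC903 libraries, 17190 to 25620 CPM in control and 63270 to 72180 CPM with paeonol. Krt10, a keratin of the spinous layer, was at 4909, 1974 and 1254 CPM in MC903, 15834, 18738 and 13754 CPM with paeonol and 4025, 2595 and 2521 CPM in control. All 3 paeonol libraries lay above every library of both other groups (2.57 ± 0.53 from MC903, 2.40 ± 0.53 from control, adjusted p = 0.0123 and 0.0152). MC903 library 1 was the highest of its group for Krt10, Lor and Flg. Its partner Krt1 was at 5855, 3844 and 2956 CPM and 6082, 6011 and 6442 CPM and was not called (0.55 ± 0.21); without MC903 library 1 it was (adjusted p = 0.000255). Flg, the barrier protein filaggrin, was at 912, 632 and 425 CPM in MC903 and 1795, 1687 and 2014 CPM with paeonol (1.48 ± 0.28). Its controls, at 593, 398 and 474 CPM, lay below the paeonol libraries (1.91 ± 0.28, adjusted p = 0.00213). Lor, which encodes loricrin of the cornified envelope, rose from 718, 408 and 360.3 CPM to 3340.1, 3271 and 3708 CPM (2.79 ± 0.32), with controls at 3275, 2249 and 1929 CPM. Ivl, involucrin, changed by 2.11 ± 0.21 (adjusted p = 0.000153).

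Other genes of the same layers rose as well. Slurp1, a secreted protein whose loss causes a thickened-palm and sole disease, was at 6.30, 3.03 and 3.65 CPM in MC903, 87.0, 76.5 and 88.8 CPM with paeonol and 84.7, 67.2 and 52.9 CPM in control (4.28 ± 0.30). The paeonol group was not called different from control (0.30 ± 0.25, adjusted p = 0.429). Slurp2 followed the same order (4.21 ± 0.60), with MC903 library 1 at the highest of its group. Krt77, a keratin of sweat duct and upper epidermis, was at 0.842, 0.758 and 1.51 CPM and 26.9, 7.23 and 18.2 CPM, with controls at 77.9, 49.4 and 30.4 CPM. The protease Asprv1, which processes filaggrin, changed by 2.01 ± 0.22 and Nccrp1 by 1.89 ± 0.19. Rptn (0.20 ± 0.35) was not called, and Tgm3, a crosslinking transglutaminase, was the lower member of the list (-0.47 ± 0.11).

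The late cornified envelope and Sprr genes, which lie in 1 cluster on chromosome 3, split by subfamily. The list had 15 members higher and 7 lower of 33 tested. All 14 Lce1 genes and Lce6a were called higher, with Lce1i at 62.9, 54.9 and 65.3 CPM in MC903 and 187, 169 and 219 CPM with paeonol (1.65 ± 0.11), Lce1f at 1.74 ± 0.12 and Lce6a at 1.48 ± 0.12. All 6 Lce3 genes, which rise in wounded or inflamed epidermis, were called lower, among them Lce3d at 12.3, 14.9 and 20.7 CPM and 2.90, 3.95 and 7.02 CPM (-1.79 ± 0.36). Sprr1b was the remaining lower member (-1.41 ± 0.35). With library 1 or 2 of either group left out it was not called (adjusted p from 0.0565 to 0.0753). The copies within a subfamily are alike, so reads may be shared between them. Sprr2a1 (0.29 ± 0.56) and Sprr2a2 (0.36 ± 0.57), which overlap each other, were not called. The count of lower members was 2 without MC903 library 2, 3 without paeonol library 2 and 4 without paeonol library 1.

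**Figure D3:**
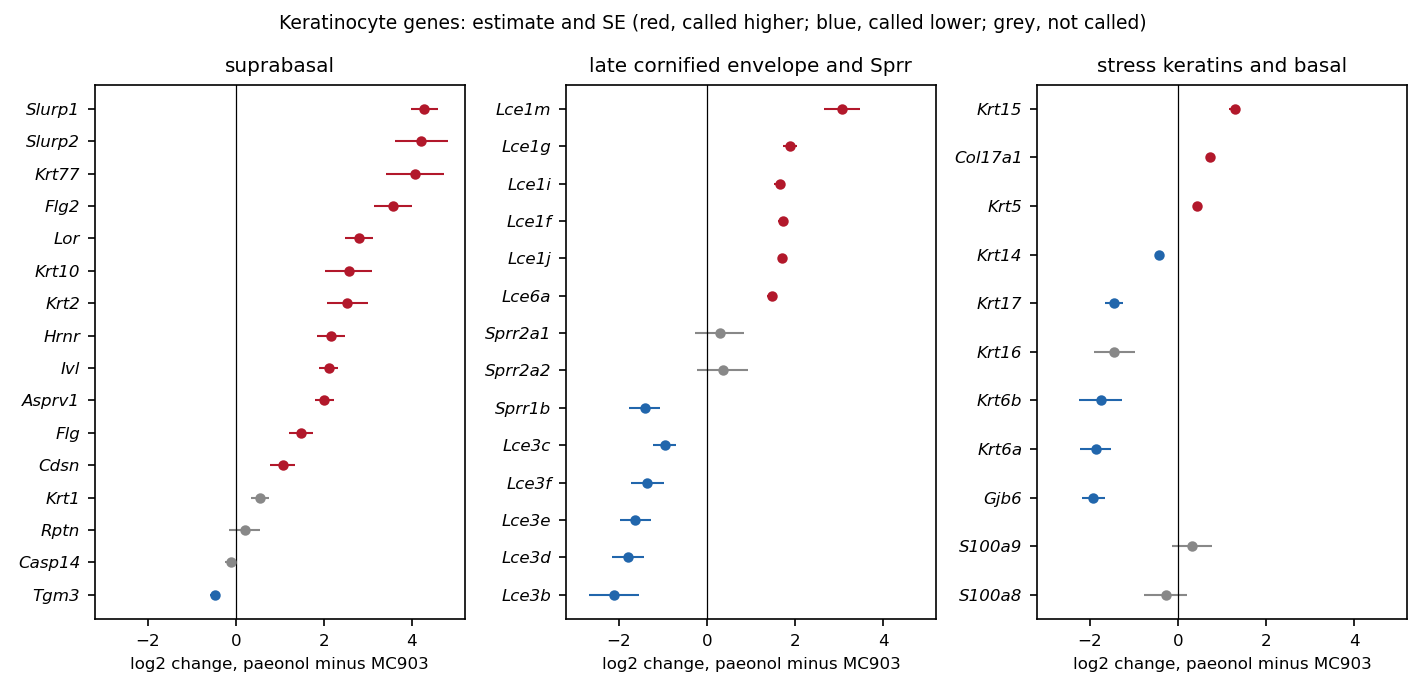
Log2 change with paeonol relative to MC903 (horizontal) with its SE for genes of the suprabasal layers, the late cornified envelope and Sprr cluster, and the stress and basal keratinocyte lists. Lce1 genes lie to the right of 0 and Lce3 genes to the left, and Krt6a and Krt17 lie to the left while Krt15 and Col17a1 lie to the right.

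Keratins and alarmins of stressed epidermis were called lower more often than higher. Of the list, 3 were higher and 12 lower of 24 members tested, and its summed level was 24090 to 25930 CPM in MC903, 7496 to 12410 CPM with paeonol and 1959 to 2883 CPM in control. Krt6a was at 5519, 5986 and 5788 CPM in MC903 and 1129.6, 1538 and 2070.1 CPM with paeonol (-1.87 ± 0.35, adjusted p = 0.00685). Every paeonol library lay below the MC903 libraries and above the controls, at 148, 348 and 290.4 CPM. Krt6a and Krt6b are near-identical, so reads may pass between them. Their partner Krt16 was at 8995, 9591 and 8479 CPM and 2377, 3101 and 4414 CPM and was not called (-1.45 ± 0.46, adjusted p = 0.0587), while DESeq2 called it lower (adjusted p = 0.00229), as did 4 other fits (adjusted p from 0.002 to 0.0481). Krt17, another keratin of activated keratinocytes, changed by -1.44 ± 0.21. Plaur, the urokinase receptor, fell (-1.996 ± 0.20). The S100 genes S100a10 (-0.50 ± 0.08) and S100a11 (-0.55 ± 0.05) fell by less. Without paeonol library 2 the count of lower members was 7. Basal keratinocyte genes went both ways, 6 members higher and 6 lower of 18 tested, and their summed levels overlapped, 24420 to 25460 CPM in MC903 and 23460 to 24860 CPM with paeonol. Their part in the other epidermal results was not tested. The integrin Itga3 fell (-0.77 ± 0.07), and the hemidesmosome collagen Col17a1 (0.72 ± 0.08), the anchoring fibril collagen Col7a1 (1.25 ± 0.08) and the stem cell keratin Krt15 (1.29 ± 0.13) rose.

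Antimicrobial and acute phase genes had 2 members higher and 10 lower of 21 tested. Saa3, a serum amyloid of inflamed tissue, was at 21.7, 32.6 and 26.4 CPM in MC903 and 0.742, 1.20 and 0.786 CPM with paeonol (-4.88 ± 1.06, adjusted p = 0.0138). Control library 2, at 11.1 CPM, stood above the other controls, and the call ended without paeonol library 1 or 3 (adjusted p = 0.062 and 0.0574). The defensin Defb14 fell from 47.8, 55.2 and 73.0 CPM to 10.8, 15.2 and 20.8 CPM (-1.91 ± 0.25), and the acute phase protein Lrg1 fell too (-1.73 ± 0.14). Wfdc21, a protease inhibitor-like secreted protein, rose from 3.45, 3.09 and 3.69 CPM to 59.9, 49.0 and 54.2 CPM (3.996 ± 0.27), with controls at 81.3, 56.8 and 38.9 CPM. Defb6 rose as well (2.80 ± 0.25). Without paeonol library 3 the count of lower members was 6.

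Proteases and their inhibitors in the epidermis had 15 members higher and 6 lower of 29 tested. The inhibitor Serpina3b was at 0.450, 0.499 and 0.272 CPM in MC903, 10.95, 9.61 and 11.8 CPM with paeonol and 29.6, 55.8 and 54.2 CPM in control. Every paeonol library lay between the groups (4.73 ± 0.31 from MC903, -2.11 ± 0.24 from control). Serpinb6d was ordered in the same way, 1.59, 0.518 and 0.708 CPM in MC903 and 12.2, 15.1 and 16.9 CPM with paeonol. Serpinb3b, of the squamous cell antigen family, was at 133, 114 and 120.3 CPM in MC903, 321, 353 and 355 CPM with paeonol and 242, 236 and 244 CPM in control, so the paeonol libraries lay above both groups. It overlaps Serpinb3c and other copies on its strand, so its level is uncertain. Serpina3n, an acute phase inhibitor, fell from 222, 239 and 261 CPM to 46.3, 46.3 and 39.3 CPM (-2.45 ± 0.12). Klk7, a desquamation protease, was not called (0.17 ± 0.21).

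Junction genes were more often higher. Tight junctions had 8 members higher and 0 lower of 17 tested: Cldn1, the main epidermal claudin, was at 114, 105 and 120.2 CPM in MC903 and 212, 222 and 243 CPM with paeonol (0.995 ± 0.08), Cldn23 changed by 2.16 ± 0.30 and the scaffold Tjp3 by 2.03 ± 0.17. Tjp1 (-0.06 ± 0.07) and Cldn4 (0.51 ± 0.17) were not called, and Cldn4 was called higher in several other fits, among them DESeq2 (adjusted p = 0.00762). Desmosomes had 7 members higher and 2 lower of 15 tested. Evpl (0.41 ± 0.07) and Ppl (0.79 ± 0.12), plaque proteins joined to the cornified envelope, and the cadherin Dsc3 (0.78 ± 0.09) rose, and Dsc2 fell (-1.47 ± 0.15).

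Genes that make the lipids of the barrier were mostly higher. The ceramide and barrier lipid list had 18 members higher and 4 lower of 30 tested, with summed levels of 2604 to 3995 CPM in MC903 and 5146 to 6472 CPM with paeonol. Slc27a4, a fatty acid transporter whose loss gives mice a tight, wrinkle-free skin, rose from 133, 90.4 and 80.2 CPM to 344, 331 and 419 CPM (1.85 ± 0.19). The ceramidase Acer1 changed by 1.34 ± 0.15, and the sphingomyelinase Smpd1 by 1.33 ± 0.15. The ceramide synthase Cers2 fell (-0.75 ± 0.09). Elovl4 (0.91 ± 0.32) and Elovl6 (1.38 ± 0.45) were not called, and both were called higher without MC903 library 1 (adjusted p = 0.00806 and 0.000413) and by DESeq2 (adjusted p = 0.0292 and 0.0121). Cholesterol and fatty acid synthesis genes had 21 members higher and 0 lower of 27 tested and a median of 0.53. Hmgcs1, an early enzyme of the sterol path, was at 379, 269 and 312 CPM in MC903 and 572, 586 and 656 CPM with paeonol (0.92 ± 0.11). Cyp51 changed by 1.07 ± 0.13, Pmvk by 0.76 ± 0.08 and Sc5d by 0.53 ± 0.07. Sebaceous gland genes had 13 members higher and 0 lower of 21 tested. Scd1, a desaturase abundant in sebocytes, was at 753, 518 and 325 CPM in MC903, 2490.1, 2276 and 3133 CPM with paeonol and 4662, 5301 and 6280.3 CPM in control (2.31 ± 0.31). Dgat2 rose by 1.74 ± 0.11 and Elovl5 by 1.24 ± 0.11. For the sebaceous list the count of higher members was 7 without MC903 library 2 and 8 without paeonol library 3.

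Vitamin D genes bear on the agent itself. Cyp24a1, which degrades vitamin D and is its most induced target, was at 4386, 4482 and 4971 CPM in MC903 and 1169, 1874 and 2798 CPM with paeonol, against 11.4, 11.6 and 6.98 CPM in control. The groups did not overlap, and the paeonol libraries were spread from 1169 to 2798 CPM. The change was -1.24 ± 0.33 (adjusted p = 0.0278). It was not called without any 1 of the MC903 libraries, without paeonol library 2, without the filter or with a block for the replicate number (adjusted p from 0.0571 to 0.0827). The vitamin D list had 3 members higher and 8 lower of 18 tested, among them the calcium pump Atp2b1 (-1.19 ± 0.13), Spp1 (-1.04 ± 0.16) and the receptor Vdr (-0.35 ± 0.08). S100g, a calcium-binding target, was not called (-1.31 ± 0.73). Retinoid genes went both ways, 13 members higher and 5 lower of 27 tested. Rdh9, a retinol dehydrogenase, stood among the 10 largest increases under the naming rule below. It went from 0.294, 0.296 and 0.163 CPM to 6.80, 19.5 and 3.05 CPM (5.27 ± 0.78). It overlaps Rdh16f1 on the same strand and paeonol library 2 stood above the others, so the value is uncertain. Sdr16c5 (1.07 ± 0.10) and Rdh11 (0.98 ± 0.11), retinol dehydrogenases, rose. Cyp26b1, which degrades retinoic acid, fell from 292, 354 and 379 CPM to 128, 144 and 174 CPM (-1.20 ± 0.13).

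Genes induced by glucocorticoids fell as a group, 16 of 17 tested, while the receptor gene Nr3c1 was the 1 called higher (0.79 ± 0.08). Fkbp5, a chaperone of the receptor and one of its strongest targets, was at 146, 125 and 136 CPM in MC903 and 33.7, 25.5 and 30.4 CPM with paeonol (-2.18 ± 0.10, adjusted p = 6.94e-07). The paeonol libraries lay below the controls, at 42.7, 39.3 and 41.3 CPM (-0.46 ± 0.10, adjusted p = 0.0041). Tsc22d3, the protein GILZ, changed by -1.046 ± 0.08, Klf9 by -1.12 ± 0.07 and Ddit4 by -1.74 ± 0.10. The median of the list was -1.12. Clock genes had 12 members higher and 3 lower of 19 tested. Hlf went from 17.2, 12.5 and 15.6 CPM to 115, 113 and 78.1 CPM (2.76 ± 0.18), Per3 changed by 1.32 ± 0.15 and Rora by 1.47 ± 0.16, and Arntl, the activator, by 0.70 ± 0.11. Per1, which glucocorticoids also induce, changed by -0.62 ± 0.13. The labels give no time of day, and its part in these values was not tested. Immediate early genes had 2 members higher and 6 lower of 18 tested. Nr4a1 (-1.57 ± 0.20) and Fosl2 (-0.58 ± 0.10) fell, and Jund (0.59 ± 0.07) and Egr2 (1.79 ± 0.12) rose. Without paeonol library 2 the count of lower immediate early members was 3. Heat shock genes were evenly split, 6 members higher and 6 lower of 16 tested, with Hspa8 at -0.76 ± 0.09 and Hspb1 at 1.32 ± 0.13.

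Energy genes were lower in 2 groups. All 13 mitochondrially encoded messenger RNAs were called lower, with log2 changes from -0.88 to -0.51. mt-Co1, a subunit of cytochrome oxidase, was at 21449, 20174 and 20596 CPM in MC903 and 12100.4, 11703 and 14043 CPM with paeonol (-0.72 ± 0.09), with controls at 13687, 15715 and 17492 CPM. The libraries were made by oligo(dT) purification, per the labels. The mitochondrial ribosomal RNAs were also at their highest in the MC903 libraries. mt-Rnr1 was at 1843, 2029 and 2162 CPM in MC903, 384, 425 and 586 CPM with paeonol and 279, 334 and 322 CPM in control, and mt-Rnr2 changed by -2.69 ± 0.20 from MC903 to paeonol. The part of RNA quality or purification in these values was not tested. The nuclear genes of the same chain had 2 members higher and 1 lower of 29 tested, a smaller share than the 29.7% of all genes. Atp5b (0.02 ± 0.07) and Atp5a1 (0.05 ± 0.06) were not called. Glycolysis and hypoxia genes had 1 member higher and 17 lower of 24 tested. The glucose transporter Slc2a1 fell from 113, 153 and 133 CPM to 57.5, 59.3 and 59.3 CPM (-1.18 ± 0.10). Pfkfb3 changed by -1.28 ± 0.12, Pfkp by -0.73 ± 0.06 and Eno1 by -0.57 ± 0.07. NRF2 antioxidant genes had 3 members higher and 9 lower of 21 tested: Gsr, glutathione reductase, was at 136, 148 and 162 CPM and 42.8, 48.1 and 53.6 CPM (-1.63 ± 0.09), Srxn1 changed by -0.70 ± 0.09 and the regulator Nfe2l2 itself by -0.81 ± 0.07. Gsta2 rose (2.44 ± 0.27), and reads of glutathione transferase copies may be shared.

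Genes that handle phenols such as paeonol went both ways. The list of the aryl hydrocarbon receptor and phenol metabolism had 6 members higher and 7 lower of 17 tested. The sulfotransferase Sult1a1 fell from 38.6, 35.4 and 32.8 CPM to 14.5, 14.2 and 14.0 CPM (-1.32 ± 0.09), the target Cyp1b1 changed by -1.101 ± 0.11, and the receptor Ahr rose (0.64 ± 0.08). The count of higher members was 3 without the filter and without MC903 library 2 or paeonol library 3. Prostaglandin and leukotriene genes had 7 members higher and 11 lower of 30 tested. Their changes ran from -2.65 to 3.53, with a median of -0.05. The summed level was higher with paeonol, 1843 to 2034 CPM against 1617 to 1729 CPM in MC903 and 931 to 1085 CPM in control. Beside Ptgs2, the leukotriene C4 synthase Ltc4s (-1.69 ± 0.17) and Alox5ap (-0.80 ± 0.10) fell, while the leukotriene receptor Cysltr1 rose (1.12 ± 0.13). Ptgs1, which encodes cyclooxygenase-1, was not called (0.06 ± 0.12).

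No proliferation gene tested here was called lower. The shares called higher stand beside the 15.3% of all genes and the 3090 of 16258 protein-coding genes. DNA replication had 9 members higher and 0 lower of 30 tested and mitosis 6 members higher and 0 lower of 26 tested, with medians of 0.22 and 0.12. Lig1, DNA ligase, rose by 0.58 ± 0.09 and the spindle gene Nusap1 by 0.67 ± 0.13, and Mki67 was at 264, 243 and 225 CPM and 241, 295 and 253 CPM (0.11 ± 0.09, not called). The replication count was 5 without MC903 library 1 or paeonol library 2. Of the EGF receptor ligands and receptors, 4 were higher and 4 lower of 14 members tested. Areg, a keratinocyte growth factor, was called lower, from 47.7, 57.7 and 77.7 CPM to 6.09, 12.1 and 16.7 CPM (-2.39 ± 0.70). The call ended without control library 3, without any 1 of the MC903 or paeonol libraries, and without the filter (adjusted p from 0.0681 to 0.122). Nrg1 changed by -2.34 ± 0.33, while Btc (2.38 ± 0.52) and Ereg (1.58 ± 0.24) rose. The count of lower members was 1 without MC903 library 2, MC903 library 3, paeonol library 1 or paeonol library 2 and 2 without the filter and without MC903 library 1 or paeonol library 3.

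Most vessel genes tested were called lower, and matrix proteases were called lower more often than higher. Of the endothelial list, 0 were higher and 15 lower of 19 members tested, and its summed level was 631.3 to 691.6 CPM in MC903, 315.8 to 426.2 CPM with paeonol and 519.1 to 618.5 CPM in control, so the paeonol libraries lay below both groups. Selp, the adhesion molecule P-selectin, changed by -1.73 ± 0.21, the lymphatic receptor Lyve1 from 79.8, 84.5 and 78.2 CPM to 33.3, 25.7 and 24.3 CPM (-1.54 ± 0.13), Eng by -0.93 ± 0.08 and Vwf by -0.87 ± 0.12. The globin genes were lower too, with Hbb-bt at 8.81, 6.67 and 4.81 CPM in MC903 and 0.830, 0.682 and 0.0575 CPM with paeonol, against 25.5, 15.6 and 8.37 CPM in control. Globin copies share reads, and how much blood an ear held at sampling was not tested. Matrix proteases and inhibitors had 2 members higher and 14 lower of 24 tested. Mmp3, stromelysin, was at 171, 172 and 182 CPM in MC903, 44.4, 53.9 and 52.0 CPM with paeonol and 72.6, 65.6 and 73.2 CPM in control. The paeonol libraries lay below both groups (-1.81 ± 0.08 and -0.49 ± 0.08). Mmp10 fell from 8.46, 14.7 and 15.2 CPM to 0.865, 0.793 and 1.304 CPM (-3.69 ± 0.31), which overlapped the controls at 0.672, 1.099 and 1.01 CPM. Mmp13 changed by -2.04 ± 0.52. Mmp13 was not called in the fit of the 6 libraries, nor with library 2 of either group or MC903 library 3 left out (adjusted p from 0.0576 to 0.0888).

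Genes of the ear's other tissues were mostly higher or not called. Cartilage had 13 members higher and 0 lower of 16 tested and a median of 1.03, with Col11a2 from 17.2, 16.8 and 13.3 CPM to 32.9, 27.5 and 29.9 CPM (0.93 ± 0.13) and Col9a2 at 1.52 ± 0.22. Its summed level was 278.5 to 327.2 CPM in MC903, 439.4 to 610.8 CPM with paeonol and 708.9 to 903.3 CPM in control. Fibroblast and matrix genes had 8 members higher and 4 lower of 26 tested. Postn, periostin, went from 175, 241 and 198 CPM to 806, 842 and 685 CPM (1.93 ± 0.12), Col1a2 changed by 0.99 ± 0.12, and Tnc, a matrix protein of repair, by -0.77 ± 0.11. Adipocytes had 7 members higher and 2 lower of 16 tested, with changes from -0.758 to the 1.76 ± 0.18 of Plin1. Adipocyte summed levels overlapped, 455.9 to 557.5 CPM in MC903 and 513.1 to 574.1 CPM with paeonol. Schwann cells had 5 members higher and 2 lower of 16 tested. Skeletal muscle had 6 members higher and 1 lower of 27 tested and summed levels of 3587 to 4507 CPM in MC903 and 4084 to 5359 CPM with paeonol, which overlapped. Its count of higher members was 1 without MC903 library 1, MC903 library 3 or paeonol library 3, 2 without paeonol library 2, 3 without the filter and without control library 2, 11 with a block for the replicate number and without control library 3, 12 in the fit of the 6 libraries, 15 without control library 1 and 16 by DESeq2. Hair follicle genes had 5 members higher and 0 lower of 19 tested, with the stem cell receptor Lgr5 at 1.08 ± 0.12. Their summed level was 791.8 to 906.7 CPM in MC903 and 157.5 to 197 CPM in control. With paeonol it was 557, 866 and 1497 CPM, highest in library 3, so the sums of MC903 and paeonol overlapped. The count of higher hair follicle members was 3 without MC903 library 3, paeonol library 2 or paeonol library 3. Melanocyte genes had 0 members higher and 2 lower of 11 tested, beside 15.3% and 14.3% of all genes. The part of tissue make-up in the epidermal and immune changes was not tested.

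**Figure D4:**
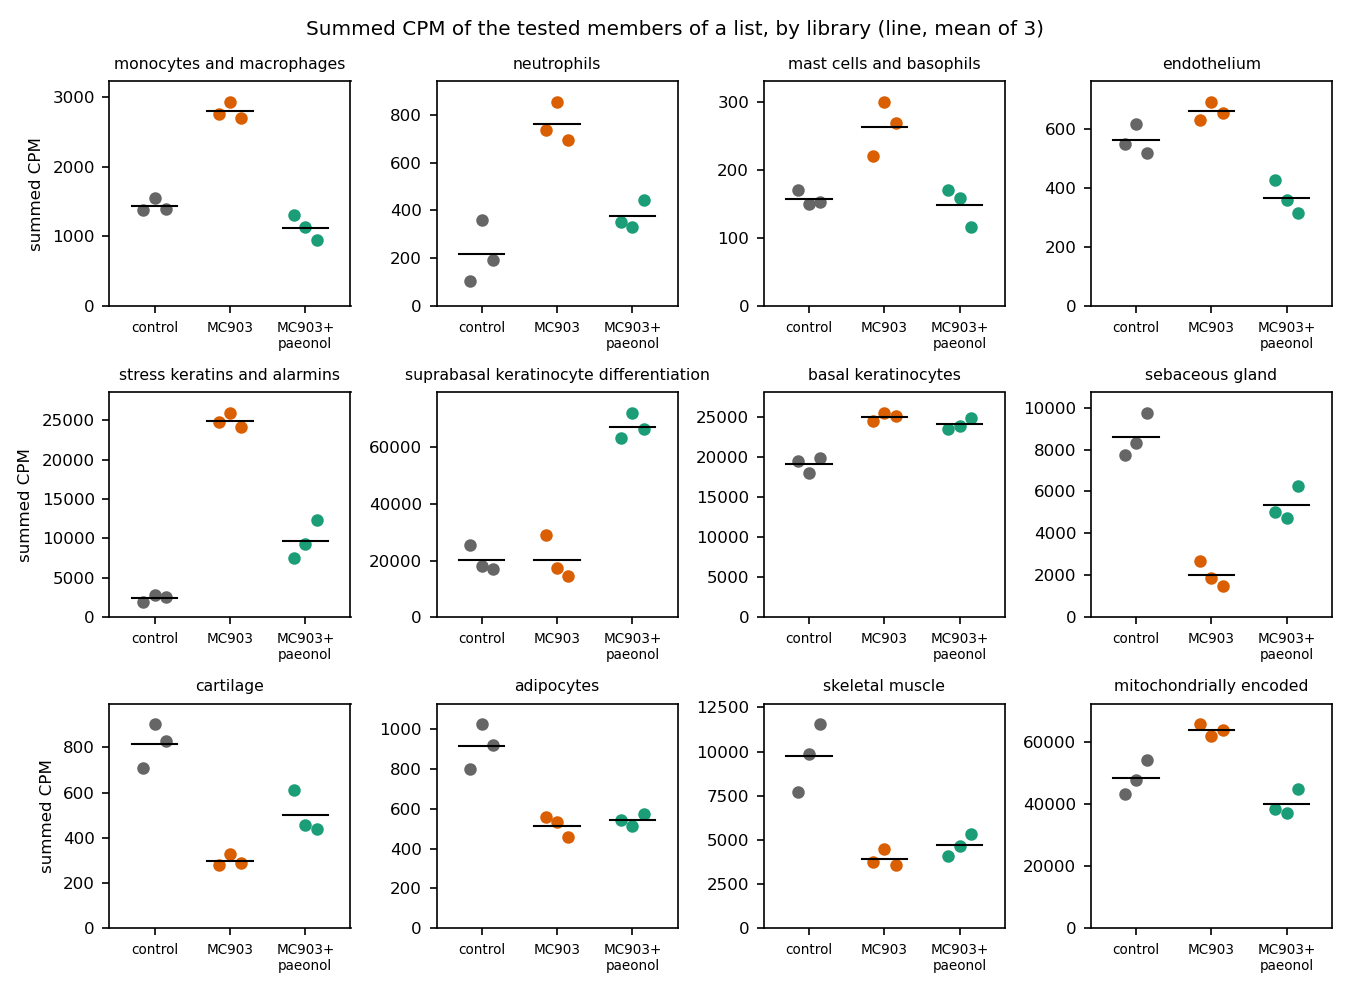
Summed CPM of the tested members of 12 gene lists in each of the 9 libraries, from 0, with a line at the mean of a group. Macrophage sums with paeonol lie below control and suprabasal sums above both other groups, while basal keratinocyte, adipocyte and skeletal muscle sums of MC903 and paeonol overlap.

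Channels and mediators of itch had no common direction. TRP channels had 4 members higher and 5 lower of 20 tested, beside 15.3% and 14.3% of all genes. Beside Trpv3, Trpm2, a channel of myeloid cells, fell from 7.63, 6.88 and 6.34 CPM to 1.40, 0.756 and 0.345 CPM (-3.05 ± 0.42), and Trpv4, which keratinocytes also carry, changed by -0.53 ± 0.09. Trpc1 rose (0.75 ± 0.15). The itch list had 3 members higher and 8 lower of 24 tested. The endothelin receptors Ednrb (-1.75 ± 0.17) and Ednra (-0.94 ± 0.12) fell. Nrtn, a neurotrophic factor, rose (1.90 ± 0.16), and so did F2rl1, the protease receptor PAR2 of keratinocytes (1.23 ± 0.14). DESeq2 called 5 higher members of this list. Il31ra, a receptor chain for the itch cytokine IL-31, was not called (-0.13 ± 0.37).

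The smallest p-values of the comparison belonged to genes of several kinds. Tnfrsf19, a receptor of the TNF family expressed in hair follicles, was at 39.8, 37.8 and 39.8 CPM in MC903, 157, 165 and 149 CPM with paeonol and 157, 140.5 and 169.5 CPM in control. The change from MC903 was 2.004 ± 0.08 (adjusted p = 4.04e-07). Paeonol and control libraries overlapped (0.01 ± 0.07, adjusted p = 0.925). Trp53inp2, an autophagy regulator, was at 71.7, 71.9 and 64.5 CPM and 164, 170.0 and 178 CPM (1.299 ± 0.06), with controls at 163, 159 and 163 CPM. Hspa12a, an atypical member of the HSP70 family, changed by 1.19 ± 0.06, and the membrane protein gene Tmem229a by 3.45 ± 0.16. Frem2, a basement membrane protein, went from 4.58, 4.12 and 3.25 CPM to 31.7, 26.4 and 25.5 CPM (2.81 ± 0.14). Ecel1, an endopeptidase of the endothelin-converting family, stood among the largest decreases under the naming rule below. It went from 56.2, 79.6 and 100.5 CPM to 1.96, 5.87 and 9.59 CPM (-3.77 ± 0.61). Its paeonol libraries were still above the controls, where at most 0.23 CPM was measured.

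**Figure D5:**
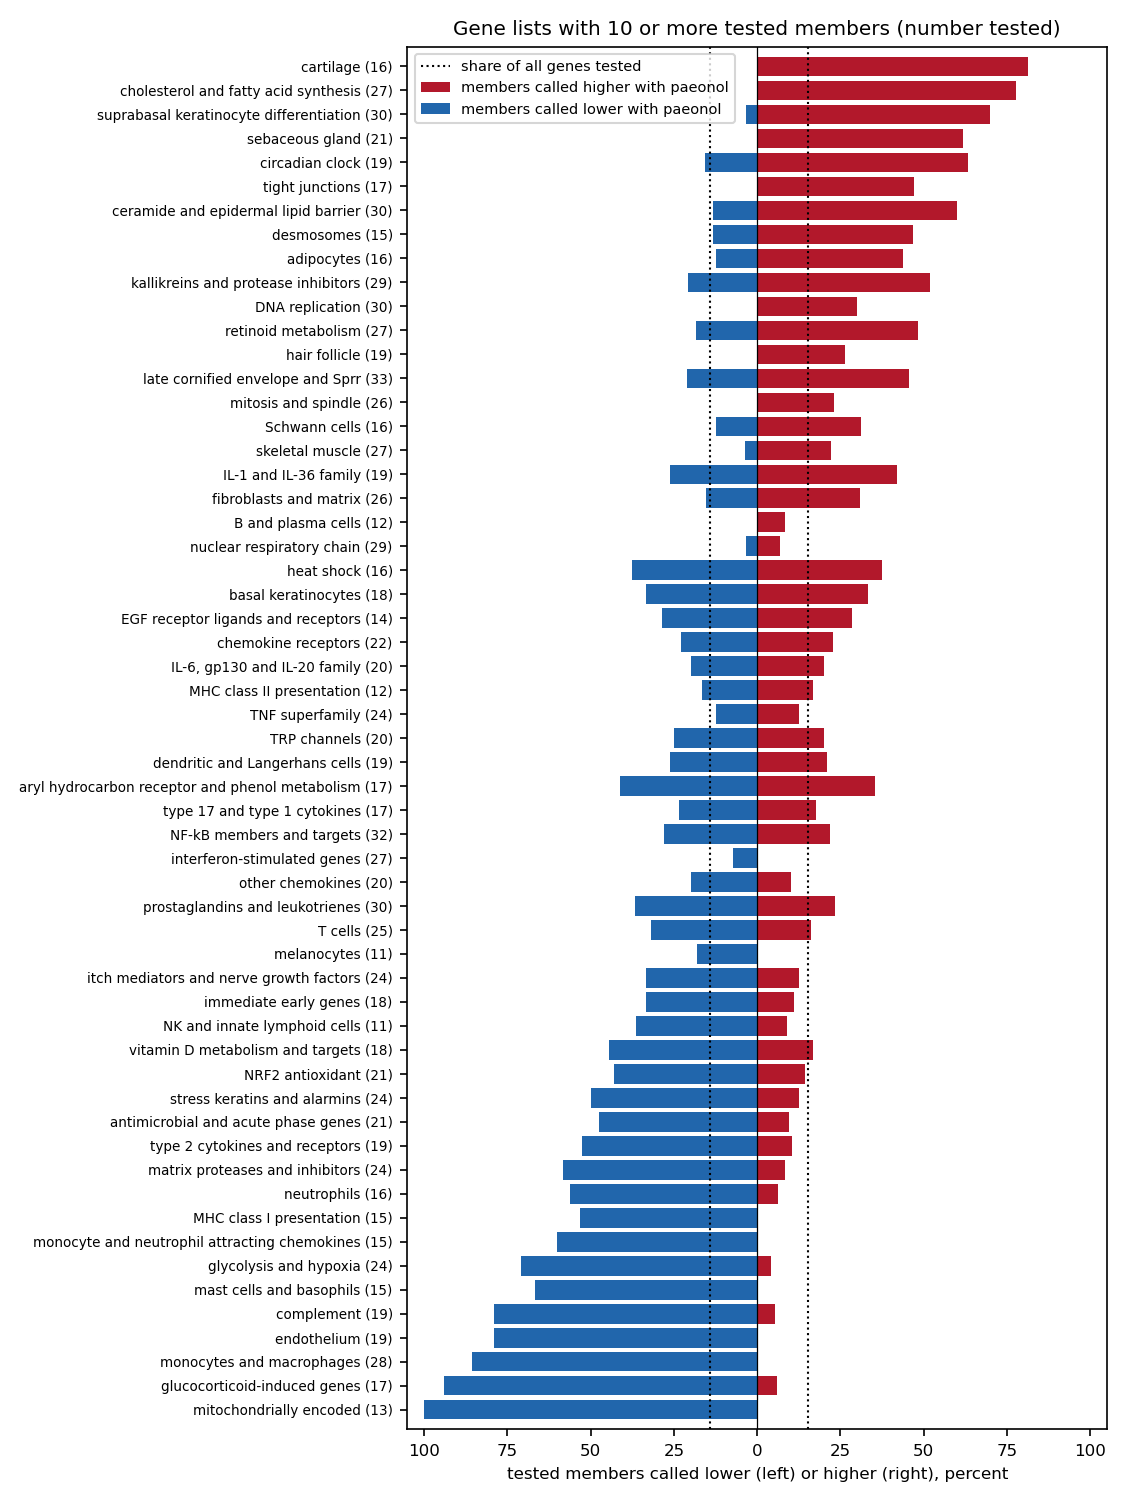
Tested members called higher (red, right) or lower (blue, left) with paeonol, in percent of the members tested, for the gene lists with 10 or more tested members; dotted lines mark the 15.3% and 14.3% of all genes. Mitochondrially encoded, glucocorticoid-induced and macrophage genes lie farthest to the left and cartilage, sterol and suprabasal genes farthest to the right.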

How the data were processed

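Libraries of mouse ear RNA were sequenced in 3 groups of 3. The table deposited by the authors holds estimated counts per gene. Per the submitters' processing notes the tools were cutadapt, HISAT2 2.0.4 and StringTie 1.3.4d, on GRCm38. Low values pile up at multiples of 4, so ratios of genes at or under 12 counts a library carry exact intervals on counts divided by 4, which cover counting error only. Counts were rescaled with TMM, filtered with filterByExpr (minimum count 10) and tested with edgeR 4.0.16 (R 4.3.3) by quasi-likelihood in 1 fit of 9 libraries, with Benjamini-Hochberg adjustment over 21925 genes. All adjusted p-values are from that test unless DESeq2 1.42.0 is named. The script was tested on simulated data.

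Named genes are a preset set, the 10 largest changes each way at a mean log2 CPM of at least 2, the 10 smallest p-values, and in each list the 4 smallest p-values and up to 2 abundant members not called. The members and lists were chosen with earlier results of these data known. Cxcl1, Cxcl3, Mmp13, Flg2, C3, Cxcr2, Cd8a, Il4ra, Tgm3, Lce3d, Sprr1b, Krt17, Spp1, Vdr, Nr3c1, Arntl, Per1, Areg, mt-Rnr1 and mt-Rnr2 fall outside the rule and were named after their values were seen. Lists describe by counts and medians, and share some genes. Promoters are from RefSeq (GRCm38.p6), 250 bases before the start. Alternatives covered scaling, filters, the test, the libraries fitted, a block for the replicate number and each library left out. Some results are not reported here.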

Additional observations from a re-analysis of the deposited data

How the results depend on the processing

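Of the alternatives, a test against a 2-fold change (glmTreat in edgeR) moved the count of called genes most, to 477, with 270 higher and 207 lower, since it asks for a larger change. Leaving out 1 library at a time gave 5065 to 6328 called genes, 2661 to 3242 higher and 2404 to 3088 lower, against 6502, 3357 and 3145. The other alternatives gave 5990 to 7287 called genes, the most by DESeq2. Scaling to library totals alone moved the share of higher calls from 51.6% to 56.3% and put the median over all genes at 0.0304 instead of 0.0024 (log2). With the replicate number as a block, 6348 genes were called, 3268 higher and 3080 lower. Deviations of libraries with the same number correlated at -0.0113 to 0.04, so no shared deviation was seen. With 3 libraries a group this cannot show whether same-numbered samples were collected or handled together. Of 77 list counts of 3 or more, 57 stayed within 1.5 times under every alternative but glmTreat, and the others are given beside their lists, except that the IL-6, gp130 and IL-20 family had 7 lower members in the fit of the 6 libraries, against 4. Calls of named genes that ended under an alternative other than glmTreat are given beside the genes. Under glmTreat against a 2-fold change, 99 of the 193 calls among 227 named genes ended. It moved 96 of all 118 list counts beyond 1.5 times. Il13 lay at or under 12 estimated counts a library in both groups, and a difference was not detectable at this depth.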
